A study of Rattus norvegicus with 44 samples.

Results

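The comparison is of R1 at 100 mg/kg/day with its vehicle, in the livers of male Wistar rats at the 24 h time point of study 1. R1 is a test compound that the labels give by code name only. The arrays were chosen by their labels: 3 treated and 3 vehicle arrays, 6 of the 44 arrays of the series, all read over the 8740 non-control probe sets of an Affymetrix rat array. The treated rats received 100 mg/kg/day of R1 by gavage once daily, and the controls received the vehicle alone, a citric acid buffer at a dose of 0. All animals were 8 weeks old when dosed, were killed 24 h after the last dose, and gave a slice of the left lateral liver lobe. Further groups used here were 4 arrays at 10 mg/kg/day and 3 at 30 mg/kg/day of R1 in the same study, and 4 vehicle arrays of study 4, also at 24 h. Nothing in the labels ties each array to an animal of its own, and the p-values therefore cover array-to-array spread that may be technical.

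Hepatocytes make cholesterol from acetyl-CoA through mevalonate and squalene, and the genes of this route are driven together by the transcription factor SREBP2 when sterol in the endoplasmic reticulum is low. The receptors CAR and PXR sense foreign compounds and drive genes of drug oxidation, conjugation and export, while NRF2 senses oxidants and electrophiles and drives glutathione synthesis and related defences. The liver also breaks down amino acids, turns their nitrogen into urea and makes glucose for the rest of the body.

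Rats given 100 mg/kg/day of R1 showed a steep rise of nearly the whole cholesterol synthesis route, a rise of drug metabolism, glutathione and proteasome genes, and falls scattered over amino acid, sulfur and glucose metabolism. Values called signal are the deposited array intensities. Log2 fold changes (treated over vehicle, ± SE) come from limma on log2(signal + 2.895), an offset that understates the change of dim genes, and a feature counts as called where its p, adjusted by Benjamini-Hochberg over all tested probe sets, is under 0.05. Calls numbered 407 among 6361 tested probe sets (6.4%), with 252 rises (3.96%) and 155 falls (2.44%). Among the called probe sets, 189 rose and 80 fell past 2-fold. By gene, each read from its brightest probe set, 118 of 3702 rose (3.19%) and 105 fell (2.84%), and the median log2 fold change over all 3702 genes was -0.05. Of 94 called genes with more than 1 tested probe set, 37 had every probe set called the same way. The signals of the treated and vehicle arrays did not overlap for 402 of the 407 called probe sets, against 24.8% of all tested probe sets. The calls rest on the same arrays, so this separation is no independent support for them.

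**Figure D1:**
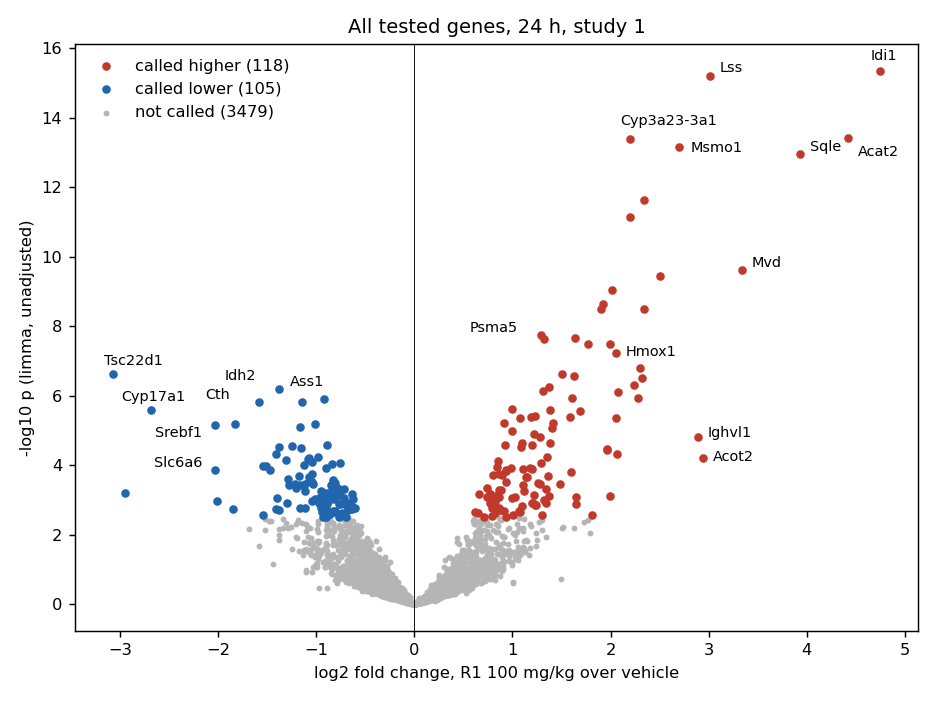
Each point is 1 of 3702 genes, with the log2 fold change of R1 100 mg/kg over vehicle (3 arrays each) on the x axis and the unadjusted limma p as -log10 on the y axis. Red points were called higher (118), blue points lower (105), and the cholesterol genes Idi1, Acat2, Sqle, Mvd and Lss stand farthest to the right.

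A call held for 83 of the 3702 genes (2.24%), 63 higher and 20 lower, when each of the 6 compared arrays was left out and under the other offsets, filters, centrings, array weights, fit without trend and fit of study 1 alone, the alternatives used to choose names. The replicate block, averaged probe sets and the study 4 vehicle were not among these. The genes described first below are among these, and the rule that named them required groups that do not overlap. Groups do not overlap in 24.6% of all genes. Other called members of the gene lists are named too, were chosen after their values were seen, and carry the arrays whose removal ended the call. Fewer cells of a type and less RNA per cell cannot be told apart in bulk liver. Values of 3 arrays are given in the order of their replicate numbers, by which arrays are also called below.

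Of the 6 tested genes that lead to squalene, 6 rose, with a median log2 fold change of 2.77. Acat2, the thiolase that joins acetyl-CoA units at the start of the route, gave signals of 2087, 1507 and 1606 on the R1 arrays, against 104, 82.9 and 53.3 on the vehicle arrays. The groups were far apart, with a log2 fold change of 4.42 ± 0.40 (adjusted p = 2.69e-11). Mvk, mevalonate kinase, had 144, 226 and 237 with R1 and 58.4, 31.2 and 55.7 with vehicle, a log2 fold change of 2.01 ± 0.26 (adjusted p = 1.74e-07). The first R1 array was the low one of its group and still far above the brightest vehicle array. Mvd, which makes isopentenyl diphosphate, had 335, 191 and 301 with R1, against 20.8, 19.4 and 33.2 with vehicle (log2 fold change 3.34 ± 0.40, adjusted p = 5.43e-08). Idi1, the isomerase that follows, gave 4082, 3412 and 3753 with R1 and 112, 132 and 173 with vehicle. This was the largest rise of any gene tested, 4.75 ± 0.37 on the log2 scale (adjusted p = 9.98e-13), or 27.1 times the mean vehicle signal. Fdps, farnesyl diphosphate synthase, had 7187, 6196 and 6461 with R1, against 1684, 1968 and 1592 with vehicle (log2 fold change 1.92 ± 0.25, adjusted p = 4.11e-07). Fdft1, squalene synthase, had 2695, 2468 and 2604 with R1 and 626, 590.1 and 481 with vehicle, both groups tight, with a log2 fold change of 2.20 ± 0.23 (adjusted p = 2.91e-09).

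From squalene to cholesterol, 7 of 9 tested genes rose, with a median of 2.34. Sqle, the epoxidase that adds oxygen to squalene and a known control point, gave 1447, 1143 and 1587 with R1, against 93.9, 66.3 and 107 with vehicle (log2 fold change 3.93 ± 0.36, adjusted p = 5.57e-11). Lss, which closes the sterol rings as lanosterol synthase, had 246, 244 and 228 with R1 and 25.4, 27.5 and 28.4 with vehicle. Its spread was small in both groups, and the log2 fold change was 3.01 ± 0.24 (adjusted p = 9.98e-13). Cyp51, the lanosterol demethylase, had 3604, 1976 and 2790.3 with R1, against 569.8, 522 and 507 with vehicle, and 4 of its 5 tested probe sets were called higher (log2 fold change 2.34 ± 0.24, adjusted p = 1.00e-09). Msmo1, the methylsterol oxidase, had 3160.4, 3078 and 3412 with R1 and 482, 414 and 599 with vehicle (log2 fold change 2.70 ± 0.25, adjusted p = 4.12e-11). Hsd17b7, a sterol keto-reductase of the route, had 180.4, 149 and 244 with R1 and 39.8, 24.6 and 29.3 with vehicle (log2 fold change 2.50 ± 0.31, adjusted p = 7.69e-08). All 3 of these steps remove or prepare the methyl groups of lanosterol. Ebp, the sterol isomerase, rose by 1.90 ± 0.26 (adjusted p = 5.54e-07), and its call held without any 1 array. Dhcr7, the reductase that ends one branch of the route, had 1898, 1413 and 1781 with R1, against 537, 346 and 237 with vehicle (log2 fold change 2.24 ± 0.38, adjusted p = 4.75e-05). The 2 members that missed the threshold were Nsdhl, a sterol dehydrogenase (log2 fold change 0.56 ± 0.25, adjusted p = 0.203), and Lbr, a sterol reductase of the nuclear envelope (0.76 ± 0.52, adjusted p = 0.515). The counts of 6 and 7 were the same without each of the 6 arrays in turn.

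**Figure D2:**
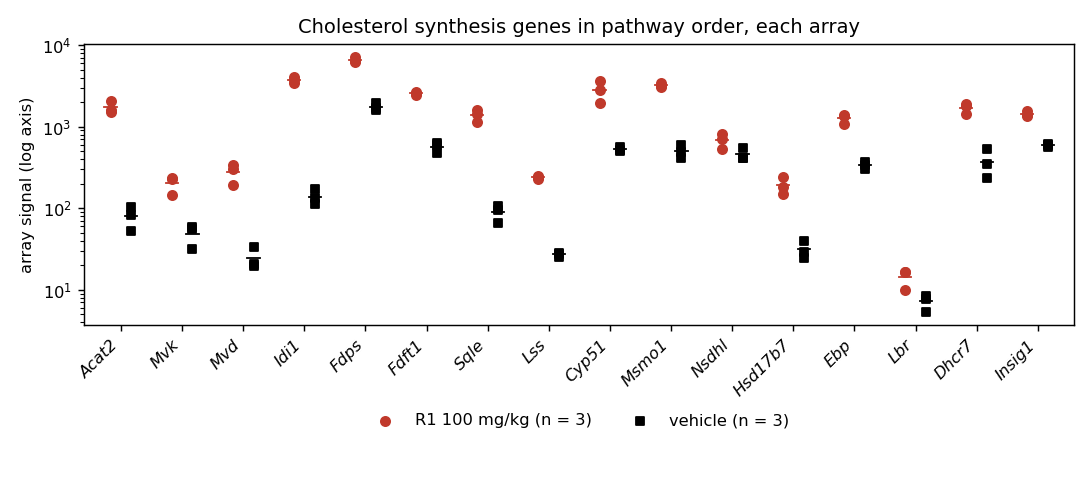
Array signal on a log axis for 15 tested enzymes of cholesterol synthesis, only roughly in pathway order, and for Insig1. Red circles mark the 3 R1 100 mg/kg arrays, black squares the 3 vehicle arrays and lines the means. The circles lie above the squares for every gene but Nsdhl, where they overlap.

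Promoters are shown for 4 members because the genes of the route moved together. They are the 250 bases before the annotated start, from RefSeq on GRCr8, printed 5′ to 3′ on the gene's own strand. Of the 13 called cholesterol synthesis genes, 11 had an entry in the promoter table. Capitals mark CCAAT on either strand, the letters bound by NF-Y, a factor known to work beside SREBP proteins. The promoters of Idi1 (chr17:66547525-66547774, minus strand), Acat2 (chr1:50100590-50100839, plus strand), Mvd (chr19:67414975-67415224, minus strand) and Lss (chr20:12118231-12118480, minus strand) read as follows.
Idi1: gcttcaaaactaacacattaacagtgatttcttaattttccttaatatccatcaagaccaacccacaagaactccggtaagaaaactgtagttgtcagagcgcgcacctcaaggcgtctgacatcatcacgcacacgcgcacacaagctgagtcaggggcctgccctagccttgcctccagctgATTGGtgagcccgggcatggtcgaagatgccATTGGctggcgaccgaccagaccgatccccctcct
Acat2: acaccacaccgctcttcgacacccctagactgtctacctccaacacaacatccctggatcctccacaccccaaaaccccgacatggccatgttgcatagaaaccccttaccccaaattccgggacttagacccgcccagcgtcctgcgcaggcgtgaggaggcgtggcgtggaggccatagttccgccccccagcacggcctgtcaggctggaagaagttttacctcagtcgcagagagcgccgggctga
Mvd: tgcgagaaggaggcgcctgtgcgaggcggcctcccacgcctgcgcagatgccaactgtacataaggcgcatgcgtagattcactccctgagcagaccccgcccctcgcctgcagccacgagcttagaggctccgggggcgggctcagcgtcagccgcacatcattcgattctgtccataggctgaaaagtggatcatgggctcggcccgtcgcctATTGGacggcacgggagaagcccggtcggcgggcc
Lss: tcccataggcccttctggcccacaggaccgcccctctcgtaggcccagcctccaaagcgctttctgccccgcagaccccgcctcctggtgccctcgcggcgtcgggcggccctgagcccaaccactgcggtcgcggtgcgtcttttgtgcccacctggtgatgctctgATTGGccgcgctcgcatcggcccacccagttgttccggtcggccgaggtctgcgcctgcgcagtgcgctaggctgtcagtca
The CCAAT letters start 66 and 35 bases before the start of Idi1, 35 bases before that of Mvd and 82 bases before that of Lss, and they do not occur in the Acat2 window. In all, 8 of the 11 windows held CCAAT on either strand, against 34.3% of the windows of 27457 genes. TCACNCCAC, a sterol response element pattern, occurred in 0 of the 11 windows and in 0.976% of all windows on either strand. With no match of TCACNCCAC, none overlapped CCAAT.

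The brakes and relays of sterol control moved in different directions. Insig1, which holds the SREBP escort protein in the endoplasmic reticulum and is itself a sterol-responsive gene, had 1374, 1335 and 1548 with R1, against 605, 569.8 and 594 with vehicle. Both groups were tight, and the log2 fold change was 1.26 ± 0.32 (adjusted p = 0.00940). Srebf1, which encodes the SREBP1 regulator of fatty acid synthesis, had 27.03, 24.8 and 21.4 with R1 and 119, 127 and 83.8 with vehicle (log2 fold change -2.03 ± 0.40, adjusted p = 0.000427). Insig1 was the only called member among 7 tested genes of cholesterol transport and control, whose median was 0.24. The others included Scarb1, the receptor for high density lipoprotein (0.27 ± 0.20, adjusted p = 0.554), and Scp2, a sterol carrier (-0.56 ± 0.29, adjusted p = 0.317).

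Genes of fatty acid synthesis did not follow the cholesterol genes: 1 of 15 rose, 3 fell, and the median was -0.07. Acsl3, an acyl-CoA synthetase, had 100.1, 87.8 and 122 with R1, against 44.1, 31.3 and 36.3 with vehicle, and rose by 1.41 ± 0.28 (adjusted p = 0.000515). Beside Srebf1, the falls were Scd, stearoyl-CoA desaturase (-1.85 ± 0.56, adjusted p = 0.0333), and Elovl5, a fatty acid elongase (-1.04 ± 0.24, adjusted p = 0.00321). The call of Scd ended without R1 array 2 or vehicle arrays 1, 2 or 3 (highest adjusted p 0.303), and that of Elovl5 without R1 array 2 (adjusted p = 0.0981). The list's count of 4 was 2 without R1 array 2. Fasn, the fatty acid synthase, had 479.8, 417 and 459 with R1 and 334, 265 and 111 with vehicle, groups that did not overlap, without passing the test (1.06 ± 0.37, adjusted p = 0.0772). Me1, the malic enzyme that supplies NADPH to lipid synthesis, had 765, 275 and 423 with R1, against 158, 82.1 and 109.9 with vehicle, and rose by 1.96 ± 0.42 (adjusted p = 0.00161). It was 1 of 4 tested NADPH genes and the only one called. Of 12 lipoprotein genes limma called 0 (1 at an unadjusted p under 0.05, median -0.07), and their log2 fold changes ran between -0.36 and 0.39.

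Of 19 tested genes known as targets of CAR and PXR, 11 rose and the median was 1.32, with all 19 log2 fold changes above 0. The transporter Slco1a4, which takes up organic anions, had 2009, 2164 and 2456 with R1, against 303, 519 and 519 with vehicle (log2 fold change 2.34 ± 0.31, adjusted p = 5.54e-07). Cyp3a23-3a1, a drug oxidase commonly used as a marker of rat PXR activity, had 11688, 10952 and 12071 with R1 and 2253, 2939 and 2397 with vehicle. Its place in the array's order of brightness was between 3 and 6 from the top with R1, and between 117 and 158 with vehicle. The deposited values share 1 set of sorted values, so this top place bounds the log2 fold change of 2.20 ± 0.20 (adjusted p = 2.69e-11). Por, the reductase that passes electrons to cytochromes P450, had 958, 578 and 440.4 with R1, against 166, 79.9 and 151 with vehicle, a wide spread in the treated group (log2 fold change 2.28 ± 0.40, adjusted p = 0.000100). Alas1, the enzyme that starts heme synthesis and so supplies these oxidases, had 1229, 1452 and 1601 with R1 and 601, 451 and 351 with vehicle (log2 fold change 1.63 ± 0.27, adjusted p = 2.77e-05). Aldh1a1, a retinaldehyde dehydrogenase, had 995, 824 and 759 with R1, against 239, 102 and 325 with vehicle (log2 fold change 2.08 ± 0.36, adjusted p = 6.90e-05).

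Export and further oxidation genes of the same list gave smaller values. Cyp3a18 had 2197, 1447 and 1931 with R1 and 475, 701 and 599.5 with vehicle (log2 fold change 1.64 ± 0.24, adjusted p = 3.13e-06). The export pump Abcc3 rose by 1.49 ± 0.38 (adjusted p = 0.00981) from dim signals, 8.04, 11.1 and 12.7 with R1 and 2.86, 1.59 and 1.30 with vehicle, and its vehicle values lie below the filter level of 9.17. Against the vehicle of study 4 the Abcc3 value was 0.85 (adjusted p = 0.106), and with the replicate block its call ended (adjusted p = 0.0591). The canalicular pump Abcc2 rose by 1.20 ± 0.29 (adjusted p = 0.00466) and lost its call without vehicle array 1 (adjusted p = 0.0614). Cyp2b2, a classical CAR target, gave 0.92 ± 0.35 (adjusted p = 0.115), and Cyp2c6v1 and Cyp2c7 gave 0.40 and 0.43 with no call. Without 1 array the list's count was 9 to 11. Members of the Cyp3a, Cyp2b, Cyp2c, Sult2a, Ugt and Gsta families are alike in sequence, and values given for one may include signal of another.

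Among 17 conjugating enzymes 5 rose, 2 fell and the median was -0.17, and 4 of the 5 rises were sulfotransferases. Sult2a2, a sulfotransferase for hydroxysteroids and bile acids, had 901, 599 and 351 with R1, against 119, 113 and 108 with vehicle, with a wide spread among the R1 arrays (log2 fold change 2.32 ± 0.38, adjusted p = 3.13e-05). Sult2a6, a close relative, had 3753, 3312 and 2902 with R1 and 716, 596 and 703 with vehicle (log2 fold change 2.30 ± 0.37, adjusted p = 1.87e-05). Sult1b1, which sulfates phenols and thyroid hormones, had 2230.4, 2037 and 1753 with R1, against 799, 639 and 868 with vehicle (log2 fold change 1.39 ± 0.29, adjusted p = 0.00120). By contrast Papss2, which makes the activated sulfate these enzymes use, fell by 1.38 ± 0.30 on the log2 scale (adjusted p = 0.00145), a call that ended without R1 array 1 (adjusted p = 0.0623). Fmo1, a flavin monooxygenase in the same list, had a log2 fold change of -1.28 ± 0.32 (adjusted p = 0.00752), and lost its call without R1 array 1 or vehicle array 1 (highest adjusted p 0.0622). The count of 7 was 4 without R1 array 1. Ugt1a5, a glucuronosyltransferase outside that list, had 225, 214 and 239 with R1 and 39.1, 31.2 and 114 with vehicle, and the third vehicle array stood above the other two (log2 fold change 2.05 ± 0.39, adjusted p = 0.000285). Of 7 tested genes of the dioxin receptor, limma called 0, with 0 also at an unadjusted p under 0.05, and Cyp1a2, its main hepatic target, gave 0.00. Of 13 glutathione transferases limma called 0 (6 at an unadjusted p under 0.05, and 3 called without R1 array 2), with Gsta3 at 1.30 ± 0.46 (adjusted p = 0.0846).

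Among 23 genes of NRF2 and glutathione, 8 rose and the median was 0.28. Hmox1, heme oxygenase, had 248, 140.1 and 159 with R1, against 30.2, 38.1 and 56.2 with vehicle (log2 fold change 2.06 ± 0.31, adjusted p = 7.35e-06). The first R1 array was the brightest. Of the genes that build and restore glutathione, Gclc, Gclm and Gsr rose, and Gss, the synthetase of the last step, gave -0.02 ± 0.21 (adjusted p = 0.982). Gclc, the catalytic subunit of its rate-limiting ligase, had 162, 149.9 and 126 with R1 and 56.1, 48.5 and 57.8 with vehicle (log2 fold change 1.38 ± 0.25, adjusted p = 0.000196). Gclm, the ligase's modifier subunit, had 242, 313 and 272 with R1, against 112, 111 and 146 with vehicle (log2 fold change 1.15 ± 0.28, adjusted p = 0.00675). Gsr, which reduces oxidised glutathione, had 175, 131 and 143 with R1 and 51.4, 37.2 and 66.5 with vehicle (log2 fold change 1.51 ± 0.24, adjusted p = 2.50e-05). In all 3 of these genes every R1 array lay above every vehicle array, as the naming rule required. Txnrd1, thioredoxin reductase, rose by 1.22 ± 0.25 (adjusted p = 0.000713), and Ephx1, the epoxide hydrolase, by 1.11 ± 0.26 (adjusted p = 0.00446). Gpx2, a glutathione peroxidase, rose by 1.64 ± 0.48 (adjusted p = 0.0257), but not without R1 arrays 2 or 3 or vehicle arrays 2 or 3 (highest adjusted p 0.159). Nfe2l2, the gene of NRF2 itself, gave -0.71 ± 0.29 (adjusted p = 0.154), and Nqo1, a widely used NRF2 target, 0.59 ± 0.63 (adjusted p = 0.715). Without 1 array the count was 6 to 8. Of 16 heme and iron genes 4 rose (median -0.02): Hmox1, Alas1, the iron sensor Ireb2 (1.28 ± 0.33, adjusted p = 0.00973) and the outer mitochondrial cytochrome Cyb5b (0.82 ± 0.25, adjusted p = 0.0413). Ireb2 was not called without vehicle arrays 1 or 2 (highest adjusted p 0.0657), nor Cyb5b without R1 arrays 1, 2 or 3 or vehicle arrays 1 or 2 (highest adjusted p 0.230). The heme and iron count was 2 without vehicle array 1 or 2.

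The promoters of Gclm (chr2:213031885-213032134, plus strand) and Gpx2 (chr6:101230034-101230283, minus strand) are printed because they hold the core of the antioxidant response element, TGACNNNGC, marked in capitals as it reads on either strand. They are from RefSeq on GRCr8, 250 bases each, 5′ to 3′ on the gene's strand.
Gclm: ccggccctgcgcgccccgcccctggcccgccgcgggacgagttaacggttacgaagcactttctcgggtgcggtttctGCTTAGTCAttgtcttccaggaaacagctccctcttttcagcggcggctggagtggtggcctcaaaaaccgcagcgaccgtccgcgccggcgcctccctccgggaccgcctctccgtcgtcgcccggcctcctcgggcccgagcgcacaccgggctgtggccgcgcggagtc
Gpx2: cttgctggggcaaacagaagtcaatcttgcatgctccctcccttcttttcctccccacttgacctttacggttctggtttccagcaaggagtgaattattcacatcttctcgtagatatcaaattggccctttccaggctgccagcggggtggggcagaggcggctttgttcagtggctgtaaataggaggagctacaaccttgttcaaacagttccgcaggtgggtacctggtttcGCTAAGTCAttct
The match starts 172 bases before the start of Gclm and 13 bases before that of Gpx2. Of the 8 called genes of this list, 6 had an entry, and 2 of the 6 windows held the pattern, against 10.2% of all windows. It also occurred in 3 of the 11 cholesterol synthesis windows and 1 of the 12 proteasome windows.

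Of 26 proteasome subunits tested, 13 rose, with a median of 0.74. The rises were spread over the catalytic core and its cap. Psma5 of the core's outer ring had 532, 445 and 449.7 with R1, against 190.1, 180.1 and 195 with vehicle (log2 fold change 1.32 ± 0.19, adjusted p = 3.38e-06). Psmb3 of the inner ring had 839, 856 and 643 with R1 and 315, 332 and 367 with vehicle (log2 fold change 1.19 ± 0.22, adjusted p = 0.000279). Psmc4, an ATPase of the cap, had 327, 465 and 363 with R1, against 150.2, 154 and 158 with vehicle (log2 fold change 1.29 ± 0.19, adjusted p = 2.70e-06). The vehicle arrays lay close together in each gene. The R1 arrays all lay well above them, though separate groups were a condition of the naming rule. Psma1, Psmc2 and Psmc3 also rose, with log2 fold changes of 1.23, 1.08 and 1.08. In contrast, the subunits exchanged into the interferon-induced form of the core gave -0.44 ± 0.25 for Psmb8 (adjusted p = 0.401) and -0.41 ± 0.31 for Psmb9 (adjusted p = 0.571), and the activators Psme1 and Psme2 gave -0.04 and -0.24, with no call. Psmb4 had the largest log2 fold change of the list and no call (1.79 ± 0.65, adjusted p = 0.0968). Its R1 signals were spread widely, at 433, 1690.2 and 1351, against 293, 260.2 and 306 with vehicle. Of the 13 called genes, 12 had a promoter entry, and 8 of these windows held CCAAT on either strand, against the 34.3% of all windows. Without 1 array the count was 10 to 13. Of 10 tested genes of ubiquitin transfer and removal, limma called 0 (1 at an unadjusted p under 0.05, median 0.21).

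Heat shock genes gave 3 rises among 15 and a median of 0.53. Stip1, a co-chaperone that links the large heat shock proteins, had 119, 95.6 and 78.1 with R1, against 37.04, 45.3 and 38.5 with vehicle (log2 fold change 1.20 ± 0.25, adjusted p = 0.00129). Hsp90ab1, the constitutive cytosolic chaperone, had 2674, 2277 and 2197 with R1 and 1442, 1139 and 1258 with vehicle (log2 fold change 0.90 ± 0.22, adjusted p = 0.00607). The third rise, Dnajb1, a heat shock co-chaperone (1.23 ± 0.36, adjusted p = 0.0265), lost its call whichever of the 6 arrays was left out (highest adjusted p 0.119). Against the vehicle of study 4, Stip1 gave 0.45 and was not called (adjusted p = 0.216). Chaperones of the endoplasmic reticulum gave 2 falls among 17 (median -0.28), with Hspa5, the main sensor chaperone of that compartment, at -0.47 ± 0.25 (adjusted p = 0.335). The falls were Ssr3, a translocon subunit (-1.31 ± 0.30, adjusted p = 0.00272), not called without R1 array 2 (adjusted p = 0.0746), and Ppib, a prolyl isomerase (-0.83 ± 0.25, adjusted p = 0.0373). Ppib lost its call without R1 arrays 2 or 3 or vehicle arrays 1, 2 or 3 (highest adjusted p 0.260), and the list's count was 0 without R1 array 2, 3 without R1 array 1 and 1 without any other array.

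Genes of stress and growth control were among the rises. List medians were 0.59 for p53 targets, 0.40 for targets of ATF4 and 0.07 for the cell cycle. Mdm2, the ubiquitin ligase that p53 induces and that restrains p53, had 139, 106 and 108 with R1, against 18.9, 26.9 and 38.9 with vehicle (log2 fold change 1.99 ± 0.30, adjusted p = 4.42e-06). Of 7 tested p53 targets, 2 were called (1 without R1 array 1), and Cdkn1a, the cell cycle inhibitor, gave -0.58 ± 0.57 (adjusted p = 0.689) from signals near the filter level. The second was Gadd45a (1.29 ± 0.30, adjusted p = 0.00340), not called without R1 array 1 (adjusted p = 0.0592) and at 0.13 against the vehicle of study 4. Ccng1 and Gdf15 gave 0.90 and 0.59 with no call, and 5 of the 7 log2 fold changes were above 0. Ccnd1, cyclin D1, had 150.4, 223 and 171 with R1 and 74.4, 55.9 and 77.6 with vehicle, and was the only called gene of 27 for the cell cycle (log2 fold change 1.35 ± 0.30, adjusted p = 0.00250). Mcm6 and Aurkb gave 1.19 and 1.14 with no call, and 16 of the 27 log2 fold changes were above 0. Slc3a2, the shared chain of several amino acid exchangers, had 599, 374 and 349 with R1, against 101, 128 and 145 with vehicle (log2 fold change 1.77 ± 0.26, adjusted p = 4.42e-06). Of 13 targets of the amino acid response factor ATF4, 2 rose and 1 fell, and the count of 3 was 1 without R1 array 1. The other rise was Psat1 of serine synthesis (2.07 ± 0.46, adjusted p = 0.00209), which missed the threshold without R1 array 1 (adjusted p = 0.0556), while Asns and Ddit3, both common ATF4 readouts, gave 0.30 and -0.24 with no call. Phgdh and Trib3 gave 1.05 and 0.63, also with no call, and 10 of the 13 log2 fold changes were above 0. The fall, Inhbe, an inhibin subunit (-0.95 ± 0.28, adjusted p = 0.0313), was not called without R1 arrays 1, 2 or 3 or vehicle arrays 1 or 2 (highest adjusted p 0.162).

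Fatty acid oxidation gave 3 rises among 45 genes and a median of 0.16. Eci1, an enoyl-CoA isomerase, had 1032, 1391 and 848 with R1, against 499.9, 479.8 and 331 with vehicle (log2 fold change 1.31 ± 0.22, adjusted p = 6.59e-05). Ech1, another isomerase for unsaturated acids, had 636, 1054 and 652 with R1 and 348, 351 and 449.7 with vehicle (log2 fold change 0.99 ± 0.18, adjusted p = 0.000194). Acot2, a mitochondrial thioesterase, had 43.00, 70.7 and 79.5 with R1, against 2.08, 0.923 and 29.2 with vehicle, so that the third vehicle array made up nearly all of the vehicle signal (log2 fold change 2.95 ± 0.66, adjusted p = 0.00250). The PPAR-alpha targets Cyp4a1, Cyp4a3 and Acaa1b gave 0.29, 0.34 and 0.39, and Ehhadh gave -0.05, all without a call.

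**Figure D3:**
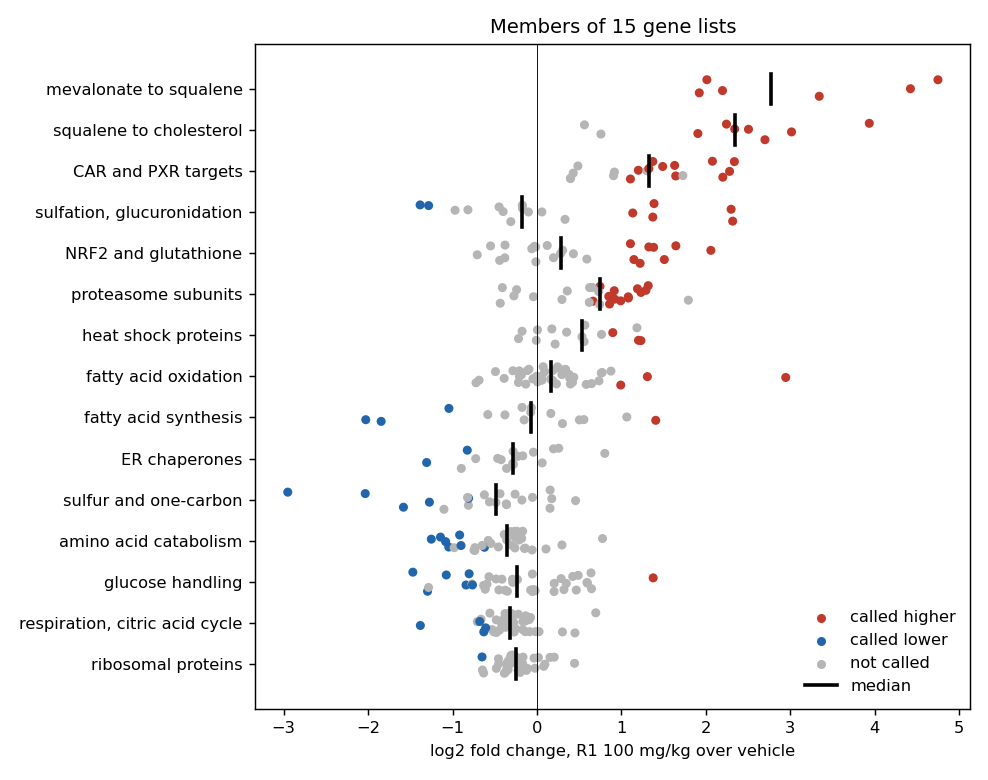
Log2 fold change of R1 100 mg/kg over vehicle on the x axis for the tested members of 15 gene lists, 1 point a gene, red where called higher, blue where called lower and grey where not called, with a black bar at each list's median. The medians of the 2 cholesterol lists are 2.77 and 2.34, that of CAR and PXR targets 1.32, and those of the lower 6 lists lie between -0.49 and -0.23.

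Of the called probe sets, 80 of 155 falls passed 2-fold, and 189 of 252 rises did. Amino acid breakdown held 7 falls among 34 genes and a median of -0.35. Gls2, the liver glutaminase, had 105, 132 and 128 with R1, against 342, 298 and 245 with vehicle (log2 fold change -1.25 ± 0.27, adjusted p = 0.00136). Ivd, which degrades a leucine intermediate, had 149, 206 and 213 with R1 and 412, 375 and 467 with vehicle, and 3 of its 3 probe sets were called lower (log2 fold change -1.14 ± 0.20, adjusted p = 0.000122). Hal, which starts histidine breakdown, had 161, 267 and 226 with R1, against 498, 501 and 379 with vehicle (log2 fold change -1.08 ± 0.24, adjusted p = 0.00269). For these genes the brightest R1 array was below the dimmest vehicle array, as the naming rule required. In the urea cycle, Ass1 had 1866, 2482 and 2077 with R1 and 4709, 4005 and 3435 with vehicle (log2 fold change -0.92 ± 0.16, adjusted p = 0.000102). Cps1, the first enzyme of that cycle, had a log2 fold change of -1.05 ± 0.27 (adjusted p = 0.00869) and lost its call without R1 array 1 or vehicle array 1 (highest adjusted p 0.0853), while Otc, Asl and Arg1 gave -0.75, -0.21 and -0.18 with no call. The count of 7 was 4 without R1 array 1 or vehicle array 1 and 8 without R1 array 2.

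Sulfur and one-carbon metabolism held 5 falls among 21 genes and a median of -0.49. Cth, which makes cysteine from cystathionine, had 189, 273 and 290.3 with R1, against 753, 861 and 634 with vehicle (log2 fold change -1.58 ± 0.28, adjusted p = 0.000123). Slc6a6, the taurine transporter, had 19.2, 20.95 and 21.1 with R1 and 116, 108 and 63.2 with vehicle, with little spread among the R1 arrays (log2 fold change -2.03 ± 0.49, adjusted p = 0.00484). Mpst, a sulfurtransferase of cysteine breakdown outside the list, had 203, 232 and 291 with R1, against 384, 406 and 432 with vehicle (log2 fold change -0.76 ± 0.17, adjusted p = 0.00327). Bhmt, which remethylates homocysteine (-1.27 ± 0.33, adjusted p = 0.0100), lost its call without R1 array 1 or vehicle array 1 (highest adjusted p 0.0885). Sds, serine dehydratase (-2.95 ± 0.80, adjusted p = 0.0156), did so without R1 arrays 1 or 3 or vehicle arrays 1 or 2 (highest adjusted p 0.0809), and only 1 of its 3 probe sets was called. Cdo1, cysteine dioxygenase (-0.81 ± 0.22, adjusted p = 0.0145), did so without R1 arrays 1 or 3 or vehicle array 3 (highest adjusted p 0.0962). The count of 5 was 2 without R1 array 1 and 3 without R1 array 3 or vehicle array 1.

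Of 39 genes of glucose handling, 6 fell, 1 rose and the median was -0.23. Slc37a4, the transporter that brings glucose phosphate to its phosphatase, had 234, 211 and 216 with R1, against 553, 458 and 401 with vehicle (log2 fold change -1.07 ± 0.24, adjusted p = 0.00251). Aldoa, the muscle-type aldolase, rose, with 206, 263 and 169 with R1 and 58.7, 72.4 and 115 with vehicle (log2 fold change 1.38 ± 0.23, adjusted p = 5.24e-05). Slc2a5, the fructose transporter (-1.47 ± 0.35, adjusted p = 0.00473), was not called without vehicle array 1 (adjusted p = 0.104). Pck1, the main control point of glucose production, gave -0.29 ± 0.49 (adjusted p = 0.845). The count of 7 called genes was 2 without vehicle array 1, the lowest of the 6 values. Aqp9, the channel for glycerol entry, had 157, 188 and 207 with R1 and 441, 523 and 512 with vehicle (log2 fold change -1.41 ± 0.31, adjusted p = 0.00206).

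In mitochondrial respiration and the citric acid cycle, 4 of 43 genes fell and the median was -0.33. Idh2, the mitochondrial NADP-linked isocitrate dehydrogenase, had 116, 104 and 144 with R1, against 298, 408 and 265 with vehicle (log2 fold change -1.38 ± 0.24, adjusted p = 6.01e-05). The other 3 were ATP synthase subunits between -0.68 and -0.61, and the list's count was 1 without R1 array 1, vehicle array 1 or vehicle array 3. Among 37 ribosomal proteins 1 fell, the median was -0.25, and 6 had a log2 fold change above 0.

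Steroid and bile acid genes included one of the largest falls. Cyp17a1, a steroid hydroxylase and lyase, had 17.4, 3.34 and 3.52 with R1, against 76.8, 50.2 and 48.2 with vehicle (log2 fold change -2.69 ± 0.49, adjusted p = 0.000196). A pair of the R1 arrays lay under the filter level of 9.17. Of 14 tested genes of steroid metabolism 3 fell and the median was -0.48, a count of 1 without R1 array 1 and 4 without R1 array 3. Serpina6, the corticosteroid carrier of blood (-1.17 ± 0.29, adjusted p = 0.00642), was not called without R1 array 1 (adjusted p = 0.0834). Hsd17b6, a hydroxysteroid dehydrogenase (-0.97 ± 0.28, adjusted p = 0.0238), lost its call without R1 arrays 1 or 2 or vehicle arrays 1 or 2 (highest adjusted p 0.178). Acox2, the oxidase that shortens the side chain of bile acid precursors, had 132, 135 and 149 with R1 and 343, 291 and 285 with vehicle (log2 fold change -1.12 ± 0.26, adjusted p = 0.00359). Cyp7a1, the rate-limiting enzyme of bile acid synthesis, had 3.15, 22.3 and 29.8 with R1, against 60.2, 4.18 and 218 with vehicle, groups that overlapped widely (-1.44 ± 0.77, adjusted p = 0.346). Of 15 bile acid genes, 2 rose and 1 fell (median -0.07), and this count of 3 was 1 without R1 array 3 or vehicle array 1. The rises were Abcb4, the phospholipid exporter of bile (0.80 ± 0.24, adjusted p = 0.0316), not called without R1 arrays 1 or 3 or vehicle arrays 1 or 2 (highest adjusted p 0.270), and Hsd3b7, a dehydrogenase of bile acid synthesis (0.77 ± 0.21, adjusted p = 0.0158). Hsd3b7 was not called without R1 arrays 2 or 3 or vehicle arrays 1 or 2 (highest adjusted p 0.140).

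Tsc22d1, a leucine zipper regulator, had the largest fall of any gene tested. Its signals were 88.3, 53.6 and 93.5 with R1, against 1169, 449 and 549 with vehicle, the first vehicle array being the brightest (log2 fold change -3.07 ± 0.50, adjusted p = 2.50e-05). Among the remaining genes of the naming rule were Lgals9, a galectin (-1.16 ± 0.23, adjusted p = 0.000477), Acp2, a lysosomal phosphatase (-0.89 ± 0.19, adjusted p = 0.00129), and Lypla1, a thioesterase (-1.01 ± 0.20, adjusted p = 0.000403). Cmtm6, a membrane protein, fell by 1.07 ± 0.26 and Kiaa0040 by 1.83 ± 0.35 on the log2 scale. Ddah1, which degrades methylarginines, had 128, 186 and 249.95 with R1 and 405, 416 and 398 with vehicle (log2 fold change -1.15 ± 0.25, adjusted p = 0.00153), but was not called against the vehicle of study 4 (-0.32, adjusted p = 0.400). Ighvl1 rose, with 303, 130.2 and 90.5 with R1, against 11.7, 23.98 and 20.8 with vehicle (log2 fold change 2.89 ± 0.59, adjusted p = 0.000840).

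**Figure D4:**
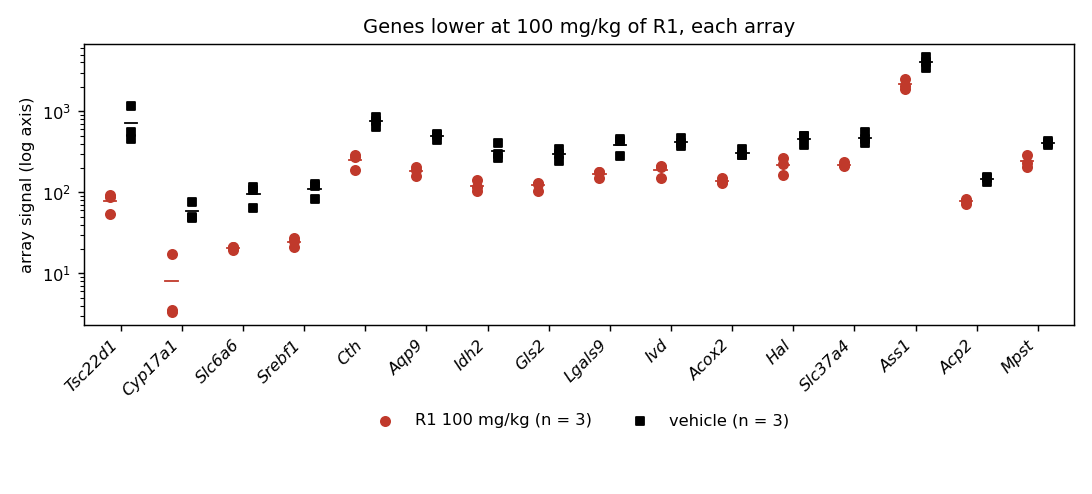
Array signal on a log axis for 16 genes that fell, with red circles for the 3 R1 100 mg/kg arrays, black squares for the 3 vehicle arrays and lines for means. In each gene all circles lie below all squares, by the rule that chose them, and the widest gaps are those of Tsc22d1, Cyp17a1, Slc6a6 and Srebf1.

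Several programmes that often move in an injured or inflamed liver gave few or no calls. By limma 0 of 24 acute phase genes were called (4 at an unadjusted p under 0.05, median -0.09) and 0 of 23 interferon and antigen presentation genes (5 at an unadjusted p under 0.05, median -0.19). It called 0 of 31 matrix genes (2 at an unadjusted p under 0.05, median -0.20) and 0 of 12 apoptosis genes (2 at an unadjusted p under 0.05, median 0.08). Over all genes 6.02% were called, so 0 calls in a list of 12 to 31 genes is close to that share. The share of all genes at an unadjusted p under 0.05 is not given here, so counts at that level have no background beside them. Cytochromes P450 outside the induced families gave 1 fall among 21 (0 to 2 calls without 1 array), with Cyp2e1 at -0.05 and Cyp2c11, the male-specific form, at -0.26. Growth hormone signalling had 1 rise and 2 falls among 18 genes, a share above the 6.02% of all genes. The list held 0 to 1 calls without 1 array. The rise, Socs2 (1.81 ± 0.57, adjusted p = 0.0436), lost its call whichever array was left out. So did the fall of Igfals (-0.90 ± 0.29, adjusted p = 0.0496). Igf1, the main hepatic product of this axis, was at -0.74 ± 0.23 (adjusted p = 0.0395), not called without R1 array 1 or vehicle arrays 1, 2 or 3 (highest adjusted p 0.325) and at -0.24 against the vehicle of study 4. Against that vehicle the acute phase list held 5 calls, the matrix list 4 and the lipoprotein list 4.

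Markers of other cell types served as a check of the tissue. The 7 hepatocyte markers on the array were all above the filter level in both groups, with summed signals of 42492 to 44037 with R1, against 44865 to 46752 with vehicle. Cps1 was the 1 called member, lower with R1. Of the Kupffer, endothelial, stellate, biliary, erythroid, neutrophil and lymphocyte markers tested, limma called 0, with 0 at an unadjusted p under 0.05, and their summed signals overlapped between the groups. Only 1 of 6 neutrophil and 5 of 10 lymphocyte markers on the array reached the filter level in each group. These dim lists can therefore show little about those cells. Of 8 mast cell markers on the array, 1 reached the filter level in each group. It was Mcpt1l1, a mast cell protease, with 109, 27.7 and 47.5 with R1, against 12.6, 10.8 and 10.03 with vehicle (1.99 ± 0.55, adjusted p = 0.0173), a call that ended without R1 array 1 or vehicle arrays 2 or 3 (highest adjusted p 0.188). Summed mast cell signals were 62.8 to 144 with R1 and 41.2 to 48.5 with vehicle. Markers of pancreas and muscle summed to 333 to 431 with R1, against 464 to 494 with vehicle, with 0 of 9 called by limma (2 at an unadjusted p under 0.05), and the part of either list in the results was not tested. Arrays correlated at 0.959 to 0.970 within the R1 group, 0.962 to 0.964 within vehicle and 0.933 to 0.955 between them.

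The lower doses of the same study show where 100 mg/kg/day stands. The comparisons with vehicle share the vehicle arrays, so the direct tests between doses are given. Set against 10 mg/kg/day, the top dose gave 253 calls (3.98%), 147 of them rises (2.31%) and 106 falls (1.67%). By gene, 151 of 3702 were called (4.08%), 78 higher (2.11%) and 73 lower (1.97%). The 6 genes up to squalene were all among those higher at 100 than at 10 mg/kg/day, as were 6 of 9 genes from squalene to cholesterol, 9 of 26 proteasome subunits, 2 of 19 CAR and PXR targets and 2 of 23 NRF2 and glutathione genes. Amino acid breakdown had 7 of 34 genes lower and glucose handling 5 of 39.

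Signals by dose showed several shapes. Idi1 averaged 139 ± 31.1 with vehicle (SD, n = 3), 914 ± 303 at 10 mg/kg/day (n = 4), 2765 ± 315 at 30 (n = 3) and 3749 ± 335 at 100 mg/kg/day (n = 3). Its level was higher at 100 than at 10 mg/kg/day by 2.09 ± 0.35 (log2, adjusted p = 0.000104), and 100 and 30 mg/kg/day were 0.44 ± 0.37 apart (adjusted p = 0.851). Slco1a4 averaged 447 ± 125 with vehicle (SD, n = 3), 1853 ± 430.00 at 10 mg/kg/day (n = 4), 2533 ± 223 at 30 (n = 3) and 2209.9 ± 227 at 100 mg/kg/day (n = 3). The mean at the top dose was below that at 30 mg/kg/day, and 100 differed from 10 mg/kg/day by 0.28 ± 0.29 (adjusted p = 0.733), which did not pass the test. Gclc averaged 54.1 ± 4.94 with vehicle (SD, n = 3), 131 ± 22.5 at 10 mg/kg/day (n = 4), 147 ± 11.96 at 30 (n = 3) and 146 ± 18.7 at 100 mg/kg/day (n = 3), with the 3 doses close together (0.17 ± 0.24 for 100 against 10 mg/kg/day, adjusted p = 0.824). Hmox1 averaged 41.5 ± 13.3 with vehicle (SD, n = 3), 50.8 ± 10.9 at 10 mg/kg/day (n = 4), 93.9 ± 59.1 at 30 (n = 3) and 182 ± 57.9 at 100 mg/kg/day (n = 3). Its arrays at 30 mg/kg/day were 162, 59.6 and 59.9, so that 1 array raised that mean. Mdm2 averaged 28.2 ± 10.05 with vehicle (SD, n = 3), 34.6 ± 4.38 at 10 mg/kg/day (n = 4), 82.4 ± 29.3 at 30 (n = 3) and 118 ± 18.6 at 100 mg/kg/day (n = 3). Both were higher at 100 than at 10 mg/kg/day, by 1.77 ± 0.29 (adjusted p = 0.000104) and 1.68 ± 0.28 (adjusted p = 9.72e-05). At 10 mg/kg/day neither Hmox1 nor Mdm2 was called against vehicle by limma (adjusted p = 0.819 and 0.779).

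Among the falls, Srebf1 averaged 109.9 ± 22.98 with vehicle (SD, n = 3), 183 ± 24.2 at 10 mg/kg/day (n = 4), 51.4 ± 10.9 at 30 (n = 3) and 24.4 ± 2.81 at 100 mg/kg/day (n = 3). It was brightest at the lowest dose, and the step between 10 and 100 mg/kg/day was -2.76 ± 0.37 (adjusted p = 4.51e-06). Cth averaged 749 ± 113 with vehicle (SD, n = 3), 791 ± 129.8 at 10 mg/kg/day (n = 4), 480.1 ± 158 at 30 (n = 3) and 251 ± 54.01 at 100 mg/kg/day (n = 3), with 10 mg/kg/day at the vehicle level and a log2 difference of -1.66 ± 0.26 for 100 against 10 mg/kg/day (adjusted p = 6.76e-05). Tsc22d1 averaged 722 ± 390.1 with vehicle (SD, n = 3), 627 ± 387 at 10 mg/kg/day (n = 4), 140.5 ± 28.1 at 30 (n = 3) and 78.5 ± 21.6 at 100 mg/kg/day (n = 3). Its spread was wide in the vehicle and at 10 mg/kg/day, and the step to 100 was -2.71 ± 0.47 (adjusted p = 0.000172). Slc6a6 averaged 95.7 ± 28.4 with vehicle (SD, n = 3), 27.5 ± 16.8 at 10 mg/kg/day (n = 4), 36.8 ± 14.4 at 30 (n = 3) and 20.4 ± 1.08 at 100 mg/kg/day (n = 3), so that the lowest dose already had a low level, and 100 differed from 10 mg/kg/day by -0.19 ± 0.45 (adjusted p = 0.908).

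**Figure D5:**
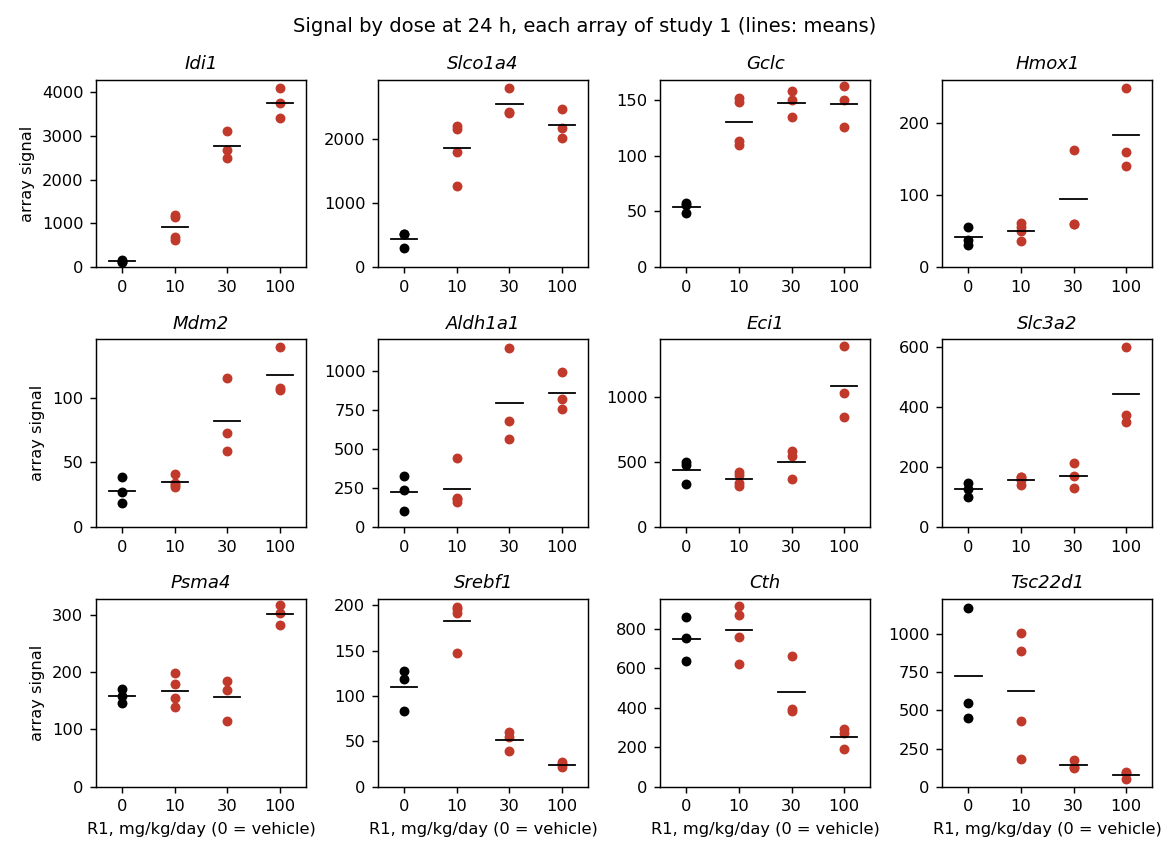
Array signal (y axis) by R1 dose in mg/kg/day (x axis, 0 for vehicle, black) at 24 h for 12 genes, 1 point an array and lines for means. The means of Idi1, Hmox1 and Mdm2 climb with each dose, those of Gclc lie close together at all 3 doses, and at 100 mg/kg Eci1, Slc3a2 and Psma4 stand above all other groups while Srebf1, Cth and Tsc22d1 have their lowest means. At 30 mg/kg 1 bright array raises the Hmox1 mean.

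Against 30 mg/kg/day, 4 of 6361 probe sets were called (0.0629%), all higher at 100 mg/kg/day, and 520 had an unadjusted p under 0.05. The 3 named genes, given because they are so few, were Slc3a2, Eci1 and Psma4 (0.081% of genes), and the remaining probe set has no gene symbol here. Slc3a2 averaged 125 ± 22.2 with vehicle (SD, n = 3), 158 ± 12.6 at 10 mg/kg/day (n = 4), 171 ± 42.4 at 30 (n = 3) and 441 ± 137 at 100 mg/kg/day (n = 3), and the direct difference was 1.34 ± 0.26 (adjusted p = 0.0163). Eci1 averaged 437 ± 92.3 with vehicle (SD, n = 3), 373 ± 51.5 at 10 mg/kg/day (n = 4), 499 ± 115 at 30 (n = 3) and 1090.3 ± 277 at 100 mg/kg/day (n = 3) (difference 1.12 ± 0.22, adjusted p = 0.0175). Psma4, a core proteasome subunit, averaged 158 ± 12.5 with vehicle (SD, n = 3), 168 ± 26.04 at 10 mg/kg/day (n = 4), 156 ± 36.02 at 30 (n = 3) and 300.4 ± 17.3 at 100 mg/kg/day (n = 3) (difference 0.96 ± 0.18, adjusted p = 0.00862). In each of these genes every array at 100 mg/kg/day was brighter than every array of the vehicle, 10 and 30 mg/kg/day groups. The count was 0 without array 1 at 100 mg/kg/day, 0 with study 1 fitted alone, 1 without array 2 of either dose, and 7 without array 1 or array 3 at 30 mg/kg/day.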

How the data were processed

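RNA from 44 liver samples of 4 studies was read on an Affymetrix rat array of 8799 probe sets, of which 59 are controls. The deposited table holds array intensities that the authors made with MAS5, per the submitters' processing notes, with version and settings not given in the sources used here. The sorted values are identical on all 44 arrays (range 0.056 to 13236, median 14.5), which quantile normalization gives and the labels do not mention. Levels are therefore relative within an array, and depth does not apply to arrays, whose number limits the precision.

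Values were taken to log2(signal + 2.895), the offset being percentile 20 of all values, and the 6361 probe sets whose highest group mean reached 9.17 (percentile 40) were tested. The fit used limma 3.58.1 in R 4.3.3 (group means over all 44 arrays, eBayes with trend, 2-sided, Benjamini-Hochberg adjustment) and was tested on simulated data. Every adjusted p in the text is from limma. One symbol was paired with 7017 probe sets, several with 297 and none with 1426, from GEO's platform annotation, and a gene is read from its probe set with the highest mean over all arrays. Genes named first were the up to 20 largest rises and falls, and up to 6 per list, among calls that held without each compared array and under the other offsets, filters, centrings, trend, array weights and study 1 alone, with groups that do not overlap. Members and gene lists were chosen with earlier results of these data known. Alternatives also covered the mean of a gene's probe sets, the vehicle of study 4 and the replicate number as a block. Same-numbered arrays of the 2 groups deviated with correlations of 0.003, -0.050 and 0.003. These values give no sign of pairing by number, but deviations within groups of 3 arrays cannot exclude it. Python 3.11.15, pandas 2.3.3, numpy 2.4.6 and matplotlib 3.10.9 were used.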

Additional observations from a re-analysis of the deposited data

Results flagged for a closer look

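In the group given 10 mg/kg/day of R1, array 4 stood apart from the other 3 for Aldh1a1, with a signal of 441.922 against 163 to 185. Its gap to the nearest other array was 0.921 of the group's range, above Dixon's critical value of 0.829. The same array was the low one for Srebf1, with 147.132 against 191 to 198 (0.867 of the range). Chance marks about 1 in 20 groups in this way, and groups of 3 arrays were not tested.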

How the results depend on the processing

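The 407 calls of R1 at 100 mg/kg/day against vehicle became 633 with arrays weighted by quality (363 higher, 270 lower), 235 with the mean of each gene's probe sets and 934 with the vehicle of study 4 (471 higher, 463 lower). Leaving out 1 array gave 263 to 376, with 263 without vehicle array 1 and 271 without R1 array 1, and the other alternatives gave 379 to 469. The 253 calls against 10 mg/kg/day became 380 with array weights and 144 with probe sets averaged by gene. Without 1 array they were 124 to 276, lowest without array 1 at 100 mg/kg/day, with 157 and 160 without arrays 1 and 2 at 10 mg/kg/day. The 4 calls against 30 mg/kg/day became 0 with study 1 alone, 2 with probe sets averaged and 0 to 7 without 1 array. The replicate number as a block in study 1 alone gave 460 calls against vehicle, 303 against 10 and 0 against 30 mg/kg/day. Not every array deviated most like its own number, and the block was not read as a paired analysis here. Averaging probe sets tests fewer features. The cause of the other shifts was not tested.

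Of the 407 called probe sets, 293 were also called in the same direction against the vehicle of study 4, and 17 had the opposite sign. The rest kept their sign there without a call. Genes were named only if direction and call held in every alternative but the replicate block, averaged probe sets and the study 4 vehicle. In these, no gene named by the rule changed direction, and 67, 66 and 65 of the 68 kept their calls. The 6 exceptions were Abcc3 with the replicate block, Abcc3, Ddah1 and Stip1 with the vehicle of study 4, and Hal and Psma1 with probe sets averaged. Probe sets of a gene were not always called together. Of the genes named by the rule, Hal and Lypla1 had 1 of 3 probe sets called and Ccnd1 had 3 of 5. Slc3a2, Acot2, Psma1 and Ddah1 had 1 of 2, and some further genes also had only a part called. The other called list members, chosen after seeing the data, lost 198 of 402 calls without 1 array. Signals near 9.17 limit what can be said of dim genes, and 8 genes called higher had a vehicle mean under it.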

Other observations

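A few further called genes of the lists were picked after their values were seen, and none kept its call without each array. The keratin pair of hepatocytes stood higher with R1. Krt8 had 459.7, 567 and 569.8 with R1, against 247, 158 and 323 with vehicle (1.18 ± 0.28, adjusted p = 0.00440), with no call without vehicle array 2 (adjusted p = 0.0792). Its partner Krt18 gave 0.77 ± 0.21 (adjusted p = 0.0163), with no call without R1 arrays 1 or 2 or vehicle array 3 (highest adjusted p 0.0980). They were 2 of 4 rises among 24 cytoskeleton genes, a count of 1 to 3 without 1 array. Amd1, which commits adenosylmethionine to polyamines, gave 1.11 ± 0.29 (adjusted p = 0.0100) and was not called without R1 array 1 or vehicle array 2 (highest adjusted p 0.0768). Hnf4a, a master regulator of hepatocyte genes, was the 1 called member of 29 nuclear receptors. It had 172, 235 and 185 with R1, against 110.1, 87.8 and 141 with vehicle (0.80 ± 0.20, adjusted p = 0.00607), and lost the call without R1 array 2 or vehicle array 2 (highest adjusted p 0.0842). Among uptake transporters, Slc22a7, which carries organic anions, gave -0.83 ± 0.21 (adjusted p = 0.00786) while Slco1a4 gave 2.34, and Slc22a7 was not called without R1 array 1 or vehicle array 1 (highest adjusted p 0.0801).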
